A study of Homo sapiens with 8 samples.

Results

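The immunoglobulin heavy chain locus (IGH), the kappa and lambda light chain loci (IGK and IGL), and the promoters of JCHAIN and MZB1 were followed through 8 maps of trimethylated lysine 4 of histone H3 (H3K4me3). A locus was taken as all regions called in its window on GRCh37, which is chr14:106032614-107288051 for IGH, chr2:89156874-90274235 for IGK and chr22:22380474-23265085 for IGL. JCHAIN and MZB1 were taken as the called bases within 5 kb of their transcription start sites (TSS), at position 71532348 of chromosome 4 and position 138725605 of chromosome 5. Regions of different libraries that overlapped by at least 1 bp were joined into merged regions. The 5 members held 105 of the 50523 merged regions, with 42 in IGH, 26 in IGK, 34 in IGL, 1 at JCHAIN and 2 at MZB1.

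Antibodies are built from 2 heavy and 2 light chains, and each chain gene is assembled in B lineage cells by joining variable (V), joining (J) and, in the heavy chain, diversity (D) segments ahead of constant segments. JCHAIN encodes the joining chain that links IgA or IgM monomers into larger forms, and MZB1 encodes an endoplasmic reticulum protein that helps assembly and secretion of antibody. H3K4me3 marks active and poised promoters, and in plasma cells these genes are among the most strongly transcribed.

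The cells were MM1S, an established human multiple myeloma line, that is, a line of malignant plasma cells, known to secrete a lambda light chain. The control group was 5 libraries from cells given the vehicle DMSO, with no treatment time in the labels. The treated group was 3 libraries from cells given KDM5-C70, an inhibitor of the KDM5 family of enzymes that remove methyl groups from this lysine, at 50 uM for 7 days. The comparison asks how the mark at these genes differs between treated and vehicle cells of 1 line. Nothing in the labels says that libraries came from separate cultures, so p-values measure only the spread between these libraries.

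The promoters of JCHAIN and MZB1 are shown because the calls at these 2 genes lie beside them. They are RefSeq sequences of GRCh38.p14, from 250 bases before the annotated gene start to 50 bases after it, 5′ to 3′ on the minus strand, at chr4:70666459-70666758 and chr5:139389864-139390163. Capitals mark matches to 4 motifs searched on both strands, which were ATTTGCA (the core of the octamer found in immunoglobulin promoters), CACGTG (an E-box), CCAAT and TATAAA. No position was carried from this build to GRCh37.
JCHAIN: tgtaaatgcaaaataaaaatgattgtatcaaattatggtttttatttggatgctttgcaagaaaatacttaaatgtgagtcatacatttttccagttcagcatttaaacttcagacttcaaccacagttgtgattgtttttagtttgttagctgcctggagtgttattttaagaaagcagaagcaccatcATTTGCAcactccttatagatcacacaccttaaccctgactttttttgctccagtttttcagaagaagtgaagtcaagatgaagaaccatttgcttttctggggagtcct
MZB1: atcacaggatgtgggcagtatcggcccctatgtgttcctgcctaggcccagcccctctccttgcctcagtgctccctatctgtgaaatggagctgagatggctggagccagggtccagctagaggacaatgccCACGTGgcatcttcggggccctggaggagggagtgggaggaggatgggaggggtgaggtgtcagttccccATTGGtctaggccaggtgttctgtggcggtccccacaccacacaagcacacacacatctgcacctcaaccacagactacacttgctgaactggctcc

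ATTTGCA occurred once in the JCHAIN promoter, starting 60 bases before the gene start, and in 4.20% of the 35116 RefSeq promoters of the same length. CACGTG occurred once in the MZB1 promoter, 117 bases before the start, and in 7.26% of all promoters. CCAAT, read on the opposite strand, lay 47 bases before the MZB1 start. In either direction it was in 34.6% of all promoters. TATAAA, present in 11.5% of all promoters, matched in neither. The JCHAIN promoter was 34.3% G and C, above only 3.73% of promoters, while that of MZB1 was 59.7%, above 52.3% of them. A match describes the letters and shows no binding.

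The deposited lists held 15323 to 37948 regions covering 12.9 to 36.7 Mb, and their depth is unknown. A region missing from a list is only a region without a call there, and the mark itself may still have been present. The lists fell into 2 sets that the labels do not name. DMSO 1, DMSO 2 and KDM5-C70 1 (set A) covered 12.9 to 17.8 Mb, and DMSO 3, 4 and 5 with KDM5-C70 2 and 3 (set B) covered 27.5 to 36.7 Mb. The Jaccard index of called bases (bases called in both over bases called in either) was 0.560 to 0.734 for pairs within a set (median 0.626) and 0.309 to 0.543 for pairs across sets (median 0.432). The medians within and across sets were 0.426 and 0.198 in IGH, 0.444 and 0.0898 in IGK, and 0.466 and 0.348 in IGL. The pairs within and across sets did not overlap in IGK, and they did in IGH and IGL. Results below are given with their values within each set, as descriptions without a test.

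The heavy chain locus carried calls in every library. Called bases in IGH were 9332, 3932, 17859, 14999 and 14451 in DMSO 1 to 5, and 6407, 18771 and 20477 in KDM5-C70 1 to 3. The density of called bases in the window was 1.07 to 2.11 times that of the rest of chromosome 14. The rest was measured from the first base of the chromosome to its last call. Stretches where no call is possible were not taken out, so the ratio can be too high. The groups overlapped, with 12115 ± 5511 bases (SD, n = 5) in DMSO and 15218 ± 7678 (SD, n = 3) in KDM5-C70, a difference of 3104 that was smaller than either spread (2-sided exact permutation test, p = 0.5). Both spreads include the difference between the sets. Within set A the IGH difference was −225 bases, and within set B it was 3854. In set B both KDM5-C70 libraries lay above all 3 DMSO libraries, and in set A the KDM5-C70 library lay between the DMSO libraries. The totals of the whole lists were ordered the same way in set B, at 27.5, 27.7 and 32.3 Mb in DMSO and 32.7 and 36.7 Mb in KDM5-C70. Per Mb of called bases the IGH difference was 27.0 (exact permutation p = 0.75).

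**Figure D1:**
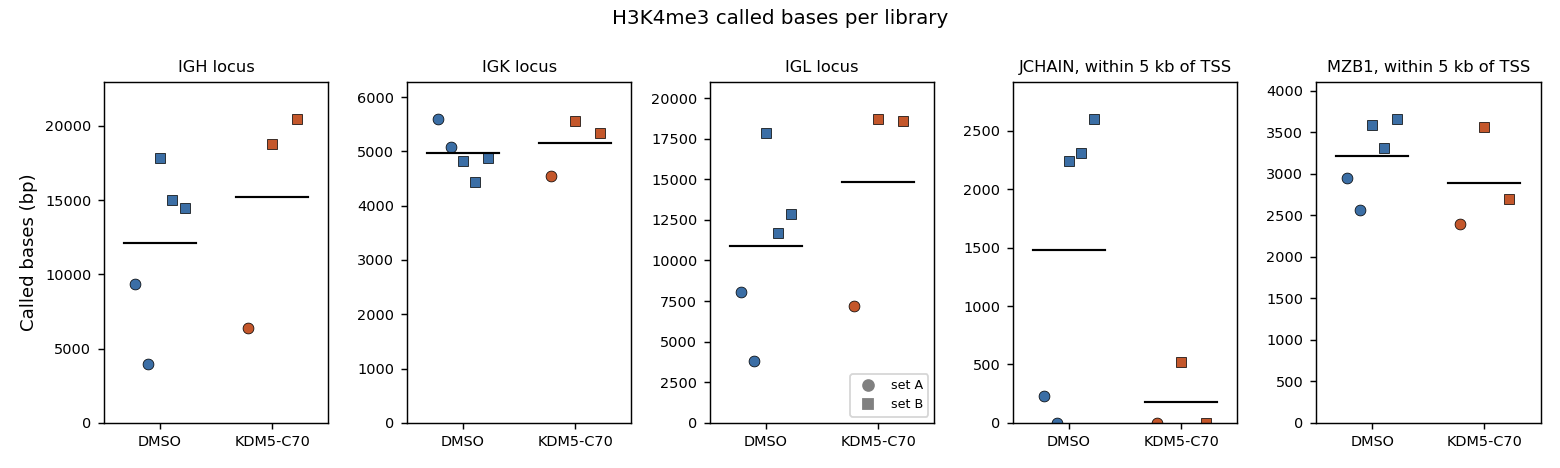
Called H3K4me3 bases (bp, vertical axis) per library at IGH, IGK, IGL, JCHAIN and MZB1 in DMSO (n = 5) and KDM5-C70 (n = 3), with the group mean as a bar, circles for set A and squares for set B. The groups overlap in all 5 panels, and in JCHAIN the 3 DMSO libraries of set B stand at 2243 to 2603 bp against 525 bp or less in every other library.

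Calls in IGH were concentrated at the low-coordinate end, where the constant segments lie, followed by the J, D and V segments. The window was divided into 4 stretches of equal length, numbered from that end. Stretch 1 held 86.0 to 100% of the called bases of the locus in set A and 49.0 to 61.2% in set B. Stretch 2 was nearly empty in all 8 libraries, with at most 209 bp. Segment borders were not placed on the stretches, so stretch 2 can hold D and V segments too. Stretches 3 and 4 held 0 to 146 bp and 0 to 1157 bp in set A, against 2438 to 3084 bp and 4206 to 5912 bp in set B. Calls in stretches 3 and 4 of IGH were thus far wider in total in the longer lists of set B. In stretch 1, KDM5-C70 2 and 3 had 11333 and 12540 called bases against 7348 to 8928 in DMSO 3, 4 and 5, while KDM5-C70 1 had 5815 against 8029 and 3932 in DMSO 1 and 2.

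**Figure D2:**
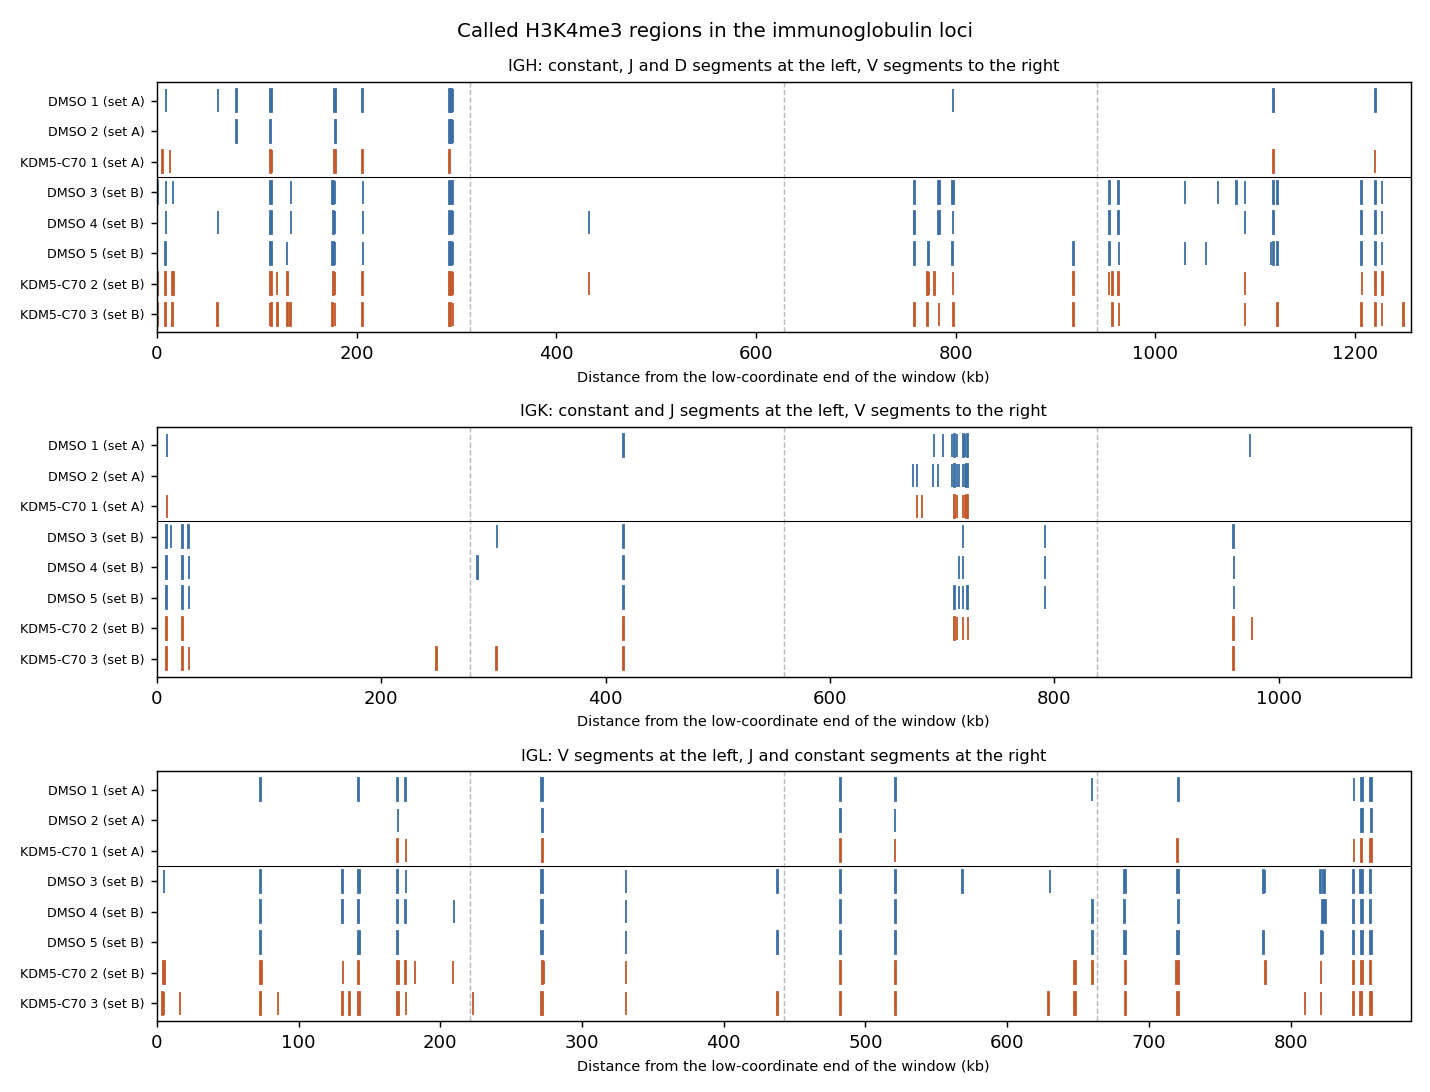
Position of each called region (kb from the low-coordinate end of the window, horizontal axis) in IGH, IGK and IGL, 1 line per library, with blue for DMSO and orange for KDM5-C70. Dashed lines divide each window into 4 equal stretches, and bars are drawn with a minimum width so that short regions can be seen. Stretch 2 of IGH is almost empty, and the dense group in stretch 3 of IGK belongs mainly to set A.

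Within IGH, 3 of 42 regions (7.14%) were called in all 8 libraries, against 27.2% of all merged regions, and 8 (19.0%) in at least 6, against 34.4%. The widest IGH region by its mean over the 8 libraries was chr14:106325038-106327841, 292 kb into the window. It measured 2011, 1719, 2666, 2543 and 2697 bp in DMSO 1 to 5 and 945, 2455 and 2005 bp in KDM5-C70 1 to 3. It was narrower in KDM5-C70 within both sets, and the groups overlapped across sets (limma log2 difference −0.46, SE 0.30, adjusted p = 0.994). It ranked wider than 93.5% of the 13729 regions called in all 8 libraries. A smaller region just beyond it, chr14:106328607-106329434, measured 539, 209, 813, 568 and 790 bp in DMSO and 0, 318 and 366 bp in KDM5-C70, again lower in KDM5-C70 within each set.

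The second wide region, chr14:106145580-106147771, measured 2055, 800, 2155, 2138 and 2026 bp in DMSO and 1443, 2137 and 1510 bp in KDM5-C70. DMSO 2 stood far below the other DMSO libraries, and the groups overlapped (limma log2 difference −0.05, SE 0.34, adjusted p = 0.997). The third region called everywhere, chr14:106210313-106211772, followed the sets. It was 1460, 1058 and 1259 bp in DMSO 1, DMSO 2 and KDM5-C70 1, and 324 to 483 bp in all 5 libraries of set B. Its neighbour chr14:106208219-106209523, picked after its values were seen, did the reverse, with 879 to 1305 bp in set B and no call in set A.

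Other heavy chain regions were wider with KDM5-C70 in set B. The region chr14:106237824-106239256 measured 1369 and 1391 bp in KDM5-C70 2 and 3 against 201, 313 and 218 bp in DMSO 3, 4 and 5. In set A the same region was 1364 bp in DMSO 1, not called in DMSO 2 and 886 bp in KDM5-C70 1, so the order of set B was not repeated there. At chr14:106040305-106041492, 8 kb from the low end, KDM5-C70 2 and 3 had 732 and 1076 bp and the DMSO libraries 172, 0, 246, 146 and 161 bp, with no call in KDM5-C70 1. In stretch 3, chr14:106829272-106830459 went the other way, with 1135, 627 and 751 bp in DMSO 3, 4 and 5 and 577 and 371 bp in KDM5-C70 2 and 3. The region chr14:107252037-107253320, near the far end, overlapped between groups at 0 to 1174 bp in DMSO and 446 to 1147 bp in KDM5-C70.

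The kappa locus had the most even total and the most divided positions. Called bases in IGK were 5599, 5088, 4818, 4429 and 4876 in DMSO 1 to 5 and 4550, 5558 and 5337 in KDM5-C70 1 to 3. The means were 4962 ± 428 (SD, n = 5) and 5148 ± 530 (SD, n = 3), and their difference of 186 was within the spread (2-sided exact permutation test, p = 0.643). It did not keep its sign within the sets, at −794 bases in set A and 740 in set B. The density of called bases relative to the rest of chromosome 2, measured as for IGH, was 0.903 to 1.19 in set A. It was 0.414 to 0.535 in set B, where the lists were longer elsewhere.

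No region of IGK was called in all 8 libraries, against 27.2% of all merged regions. In at least 6 libraries 3 of 26 (11.5%) were called, against 34.4%. In set A, 85.1 to 100% of the called bases lay in stretch 3 of 4, at 4404 to 5088 bp. These set A calls all lay between chr2:89830471 and chr2:89880032, and they were not assigned to segments. In set B that stretch held 0 to 2050 bp, which was 0 to 42.0% of the locus. The largest region there, chr2:89878401-89880032, measured 1490, 1626 and 1554 bp in DMSO 1, DMSO 2 and KDM5-C70 1. In set B it was 643 bp in DMSO 5, 146 bp in KDM5-C70 2 and not called in the other 3 libraries. Beside it, chr2:89867316-89868342 had 976, 1017 and 1005 bp in set A, 681 bp in DMSO 5 and 646 bp in KDM5-C70 2. Between them, chr2:89875197-89876036 was called in 7 libraries, at 146 to 837 bp. V segments of IGK exist as near-identical copies, but whether these calls lie in V segments was not determined. How reads with several possible positions were placed is not given in the sources used here. No filter for stretches prone to mapping artefacts was applied, and the set A total and density of IGK rest mainly on this stretch.

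Near the constant and J end of IGK the calls belonged mainly to set B. At chr2:89164613-89166268, 8 kb into the window, widths were 423, 0, 922, 736 and 695 bp in DMSO and 146, 1234 and 913 bp in KDM5-C70. Stretch 1 held 0 to 423 bp in set A and 1734 to 2993 bp in set B. Farther in, chr2:89572290-89573324 measured 488, 470 and 675 bp in DMSO 3, 4 and 5 and 883 and 851 bp in KDM5-C70 2 and 3, and in set A it was called only in DMSO 1, at 251 bp.

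The lambda locus encodes the light chain this line is known to secrete. Its share of recurrent regions was the largest of the 3 loci but below that of all merged regions. The window also holds other genes, and regions were not assigned, so this share need not reflect light chain segments. Of its 34 regions, 6 (17.6%) were called in all 8 libraries, against 27.2% of all merged regions, and 11 (32.4%) in at least 6, against 34.4%. Called bases were 8048, 3822, 17869, 11715 and 12887 in DMSO 1 to 5 and 7225, 18723 and 18604 in KDM5-C70 1 to 3. The means were 10868 ± 5277 (SD, n = 5) and 14851 ± 6604 (SD, n = 3), a difference of 3982 that was smaller than either spread (2-sided exact permutation test, p = 0.357). Both spreads include the difference between the sets. Within set A the IGL difference was 1290 bases, and within set B it was 4506.5. In set B both KDM5-C70 libraries lay above the 3 DMSO libraries, and in set A the KDM5-C70 library lay between the DMSO libraries. The density relative to the rest of chromosome 22 was 0.672 to 1.45. It was measured as for IGH and can be too high for the same reason.

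Stretch 4 of IGL, whose high-coordinate end carries the J and constant segments, held 33.6 to 58.2% of the called bases of the locus. Its calls were not assigned to segments. It had 1902 to 4205 bp in set A and 5878 to 10035 bp in set B, with KDM5-C70 2 and 3 (6887 and 6242 bp) inside the range of DMSO 3, 4 and 5. Stretch 1, at the V segment end, differed more in set B, at 7163 and 5763 bp in KDM5-C70 2 and 3 against 2718 to 3787 bp in the DMSO libraries. In set A the same stretch had 1515 and 159 bp in DMSO 1 and 2 and 890 bp in KDM5-C70 1.

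At the constant end, chr22:23229643-23231560 was the widest IGL region by its mean over the 8 libraries, at 1538, 1252, 1643, 1493 and 1506 bp in DMSO and 980, 1089 and 1313 bp in KDM5-C70. KDM5-C70 was narrower in both sets and only DMSO 2 fell below KDM5-C70 3, yet the difference did not pass in the main fit (limma log2 difference −0.40, SE 0.19, adjusted p = 0.994). Other fits of this region are given in the closing section. Next to it, chr22:23236262-23237702 measured 1322, 650, 1214, 620 and 873 bp in DMSO and 1430, 981 and 1171 bp in KDM5-C70, with the groups overlapping. The region chr22:23224290-23225502 ranged over 0 to 1134 bp in DMSO and 516 to 1169 bp in KDM5-C70.

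In stretch 1 of IGL, chr22:22549976-22551545 was the member region with the largest fitted difference. It measured 512, 159, 798, 564 and 900 bp in DMSO and 572, 1462 and 1298 bp in KDM5-C70, higher in KDM5-C70 within each set but overlapping across sets (limma log2 difference 1.02, SE 0.57, adjusted p = 0.994). The region chr22:22862163-22863399 had the same order, at 549, 473, 754, 690 and 731 bp in DMSO and 707, 960 and 1021 bp in KDM5-C70 (limma log2 difference 0.49, SE 0.27, adjusted p = 0.994). In contrast, chr22:22651608-22653087 was steady at 1080 to 1480 bp in DMSO and 1035 to 1303 bp in KDM5-C70, and chr22:22901070-22902144 at 208 to 797 and 388 to 783 bp also overlapped. The GRCh38.p14 gene table lists VPREB1, ZNF280B, ZNF280A, PRAME, GGTLC2 and IGLL5 inside this locus besides its segments, so a call in IGL need not belong to a light chain segment.

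The remaining IGL regions called in at least 6 libraries were chr22:22453091-22454707, chr22:22522104-22523827, chr22:22555761-22556505 and chr22:23099865-23101460. None was called in DMSO 2. In set B, chr22:22522104-22523827 was wider in KDM5-C70 2 and 3 (1295 and 1487 bp) than in DMSO 3, 4 and 5 (1158, 583 and 986 bp), and the other 3 regions overlapped or were missing in a DMSO library.

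**Figure D3:**
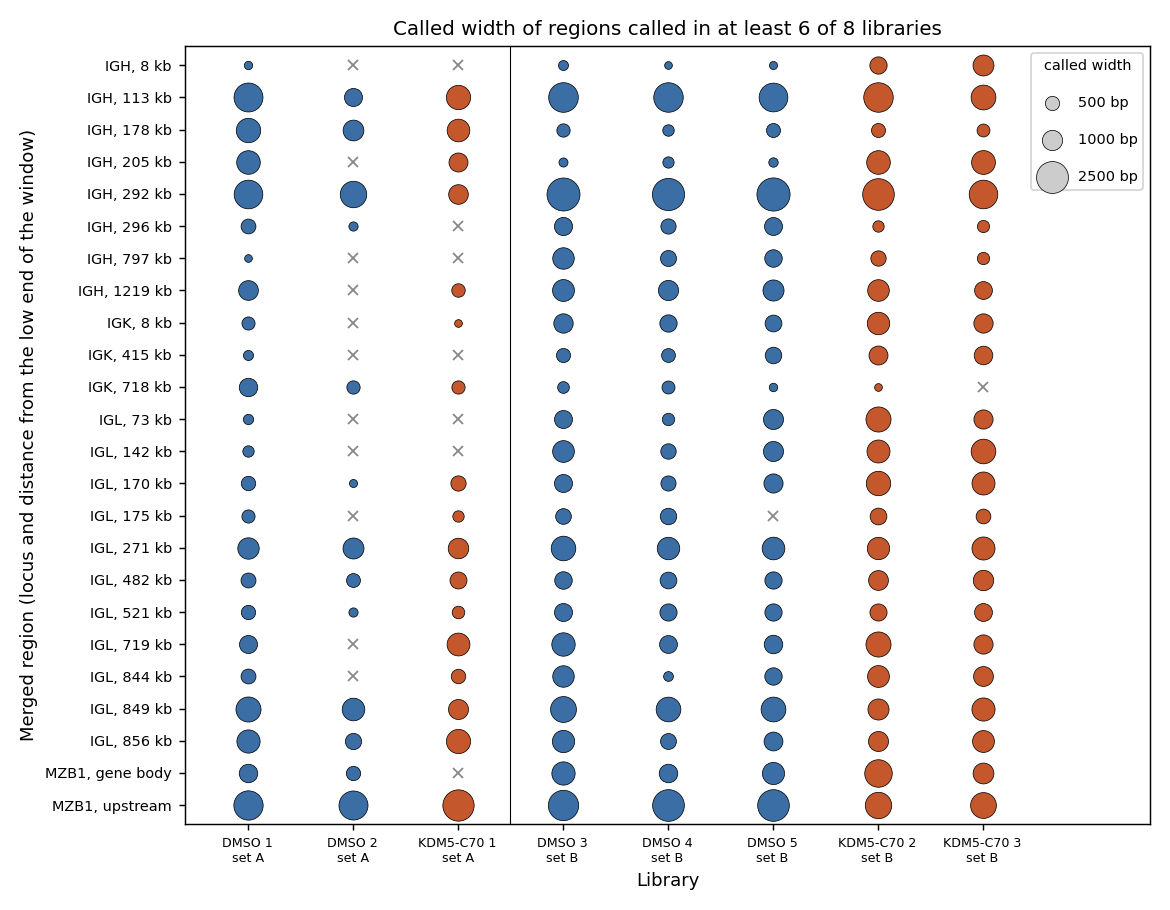
Called width (bp, area of the circle) of the 24 member regions called in at least 6 of 8 libraries, by library, with a cross where a region was not called, blue for DMSO and orange for KDM5-C70. Rows are named by locus and distance from the low end of the window, and the row IGH, 178 kb is wide in set A and narrow in set B while most others are wider in set B.

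JCHAIN had calls in 5 of 8 libraries, and the widest were in vehicle cells. Within 5 kb of its TSS, called bases were 227, 0, 2243, 2313 and 2603 in DMSO 1 to 5 and 0, 525 and 0 in KDM5-C70 1 to 3. The DMSO libraries of set B were high, and every other library had 525 bp or none. The group means were 1477 ± 1255 (SD, n = 5) and 175 ± 303 (SD, n = 3). The difference of −1302 bases did not pass the test (2-sided exact permutation test, p = 0.25), since DMSO 1 and 2 also had little or no call. It was −2124 bases within set B and −114 within set A.

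The calls at JCHAIN lay downstream of the TSS position used here, and none reached it. Whether that position matches the gene start of the promoter shown above was not checked. The calls ran from 205 to 2447 bp downstream in DMSO 3, from 164 to 2476 bp in DMSO 4, and in DMSO 5 from 61 to 1512 and from 2103 to 3253 bp. The call of KDM5-C70 2, at 1106 to 1630 bp, fell inside that stretch, and the call of DMSO 1 lay at 2474 to 2700 bp. In their −log10 q-value, the authors' own measure of confidence for each call, the wide JCHAIN calls were low, at 4.12 in DMSO 3, 2.33 in DMSO 4, and 1.69 and 0.995 in DMSO 5. The call of KDM5-C70 2 had 0.826, and the short call of DMSO 1 had the highest, 7.42. With calls of at least 5 alone, the JCHAIN difference was −45.4 bases and rested on DMSO 1 (exact permutation p = 1). All called bases at JCHAIN are 1 merged region, chr4:71529095-71532287.

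**Figure D4:**
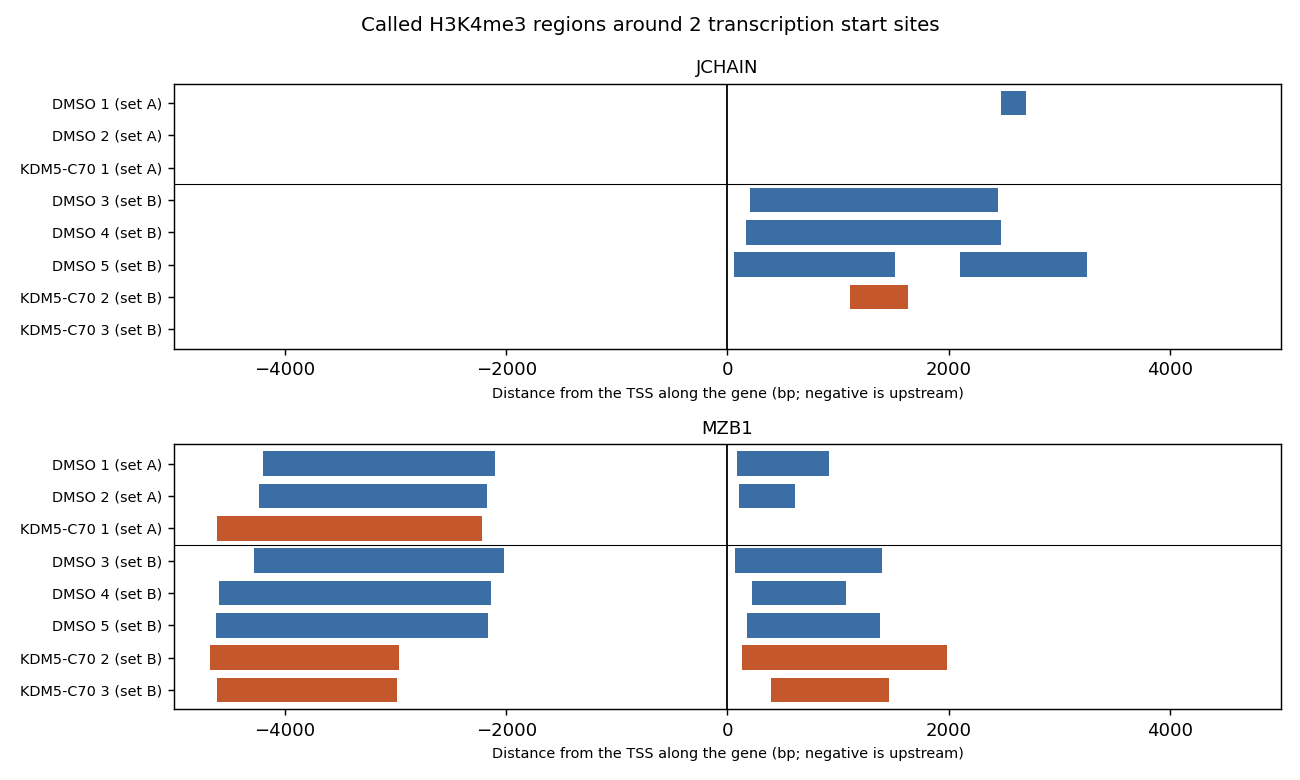
Called regions within 5 kb of the JCHAIN and MZB1 TSS (bp along the gene, negative upstream, horizontal axis), 1 line per library, with blue for DMSO and orange for KDM5-C70. JCHAIN calls lie downstream of the TSS, and MZB1 has a gene-body call and a separate upstream call whose edge nearest the TSS is farther away in KDM5-C70 2 and 3.

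MZB1 carried 2 separate regions, with the TSS in the gap between them. Called bases within 5 kb were 2947, 2569, 3586, 3314 and 3664 in DMSO and 2402, 3566 and 2698 in KDM5-C70. The means were 3216 ± 458 (SD, n = 5) and 2889 ± 605 (SD, n = 3), and the difference of −327 was within the spread (2-sided exact permutation test, p = 0.429), with −356 in set A and −389 in set B. The gene-body region, chr5:138723619-138725538, measured 840, 503, 1330, 846 and 1204 bp in DMSO. It was not called in KDM5-C70 1, and it was 1859 bp in KDM5-C70 2, the widest of all, and 1065 bp in KDM5-C70 3. The treated libraries thus held both its lowest and its highest value.

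The upstream region, chr5:138727630-138730281, was called in all 8 libraries, and its mean width exceeded that of 93.6% of such regions. It measured 2107, 2066, 2256, 2468 and 2460 bp in DMSO and 2402, 1707 and 1633 bp in KDM5-C70. KDM5-C70 2 and 3 were below all DMSO libraries and KDM5-C70 1 was not (limma log2 difference −0.27, SE 0.17, adjusted p = 0.994). The edge facing MZB1 lay 2025 to 2172 bp upstream in DMSO, 2218 bp in KDM5-C70 1, and 2970 and 2987 bp in KDM5-C70 2 and 3. The next gene on that side in the RefSeq table is PROB1, so the region need not belong to MZB1. The regions with the most similar widths over the 8 libraries were chr12:8394796-8396801 (Pearson r of log2 width 0.933), chr14:103057892-103060340 (0.929) and chr4:2935602-2937878 (0.925), given as a description over libraries that share the 2 sets. The JCHAIN region was not called in every library, so none was sought for it.

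Set against the whole table, the member regions recurred less often and their widths did not separate the groups. Of the 105 regions, 10 (9.52%) were called in all 8 libraries, against 27.2% of all merged regions, and 24 (22.9%) in at least 6, against 34.4%. Regions called in 1 library made up 34.3% of members (36) and 31.7% of all. No member was called in every DMSO library and no KDM5-C70 library, against 0.00792% of all regions, and none in every KDM5-C70 library and no DMSO library, against 0.00198%. By set, 8 members (7.62%) were called in all of set B and none of set A, against 10.6% of all regions. The reverse held for 1 (0.952%), against 0.356%, which was chr2:89876864-89877509 in IGK, at 646, 591 and 576 bp in DMSO 1, DMSO 2 and KDM5-C70 1, and was picked after its values were seen.

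The limma fit covered the 13729 regions called in all 8 libraries. It called 0% of them at an adjusted p of 0.05 (131 were wider and 111 narrower at an unadjusted p under 0.05) and 0 of the 10 member regions, whose adjusted p-values were 0.994 to 0.999. Of the 10, 4 had a positive and 6 a negative estimate, and their median log2 difference was −0.03 against 0.14 over all regions. KDM5-C70 was wider than every DMSO library in 0 of 10 members and 0.954% of all regions, and narrower in 0 of 10 and 0.605%. Within set B, KDM5-C70 2 and 3 were both wider than DMSO 3, 4 and 5 in 9 of the 30 member regions called in all 5 libraries (30%), against 35% of all such regions. They were both narrower in 5 of 30 (16.7%), against 7.61%. The 5 were 3 in IGH, chr22:23229643-23231560 in IGL and the upstream region of MZB1. The wider ones were 3 each in IGH, IGK and IGL.

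Some members were called on 1 side of the comparison in set B, and those named here were picked after their values were seen. KDM5-C70 2 and 3, but none of DMSO 3, 4 and 5, had 4 regions (3.81%, against 2.63% of all), of which the widest was chr22:23027723-23029003 in IGL at 1206 and 1281 bp. The 3 others were in IGH. DMSO 3, 4 and 5, but neither KDM5-C70 2 nor 3, had 3 regions (2.86%, against 0.677%), 1 in each locus. The IGL one, chr22:23202827-23205193, measured 1943, 2367 and 534 bp, and the IGK one, chr2:89948196-89948721, 451, 460 and 298 bp. Neither was called in any library of set A. The IGH one, chr14:107150658-107150964, measured 272, 289 and 171 bp. In set A it was called in DMSO 1, at 203 bp, and in KDM5-C70 1, at 146 bp.

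Each deposited region can contain shorter inner segments, and the share of called bases inside them was lower with KDM5-C70 in IGH and IGL. In IGL the share was 61.6, 67.2, 60.1, 59.2 and 61.9% in DMSO 1 to 5 and 34.4, 46.6 and 45.9% in KDM5-C70 1 to 3, with no overlap. The means were 62.0 ± 3.11% (SD, n = 5) and 42.3 ± 6.86% (SD, n = 3), and the difference of −19.7 percentage points exceeded both spreads (2-sided exact permutation test, p = 0.0357, the smallest that 5 against 3 libraries can give). It was −30.0 points in set A and −14.2 in set B. In IGH the share was 44.2, 46.7, 59.5, 44.7 and 55.5% in DMSO and 27.8, 43.7 and 40.8% in KDM5-C70. The groups did not overlap, although DMSO 1 and KDM5-C70 2 were close, and the difference was −12.7 points (2-sided exact permutation test, p = 0.0357), −17.7 in set A and −11.0 in set B. With each list limited to an equal number of its widest regions, the IGH difference was −9.82 points and no longer passed (exact permutation p = 0.286).

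The same shift was present across the whole lists. Inner segments made up 68.2 to 76.3% of all called bases in the DMSO libraries and 56.5 to 58.4% in the KDM5-C70 libraries. After subtraction of the share of its own library, the IGL difference was −6.68 points (2-sided exact permutation test, p = 0.214) and that of IGH was 0.33 points (p = 0.857 in the same exact test). No difference particular to either locus was therefore detected. The 3 loci lay below their library's share in all 8 libraries, by 14.5 to 30.7 points in IGH, 3.30 to 37.7 in IGK and 2.12 to 24.1 in IGL. MZB1 lay below it in 6 of 8 libraries and was 15.2 points above it in DMSO 3. JCHAIN lay below it in 4 of the 5 libraries with a call and was 31.8 points above it in DMSO 1.

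In IGK the inner share was 30.5, 33.9, 71.4, 65.0 and 58.8% in DMSO and 29.8, 35.3 and 50.4% in KDM5-C70, and the groups overlapped (2-sided exact permutation test, p = 0.286). DMSO 1 and 2 were as low as the KDM5-C70 library of their set, and the 3 DMSO libraries of set B were above both KDM5-C70 libraries there. At MZB1 it was 64.7, 42.3, 91.4, 68.3 and 77.2% in DMSO and 43.4, 52.9 and 48.6% in KDM5-C70 (2-sided exact permutation test, p = 0.143). At JCHAIN the call of KDM5-C70 2 had no inner segment, and those of DMSO 1, 3, 4 and 5 had 227, 1020, 829 and 502 bp. The 2-sided exact permutation test, over the 5 libraries with a call, gave p = 0.4. In their main form, 11 such tests of totals and shares were made for the members, without adjustment across them, and the further p-values for other settings come on top of these.

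**Figure D5:**
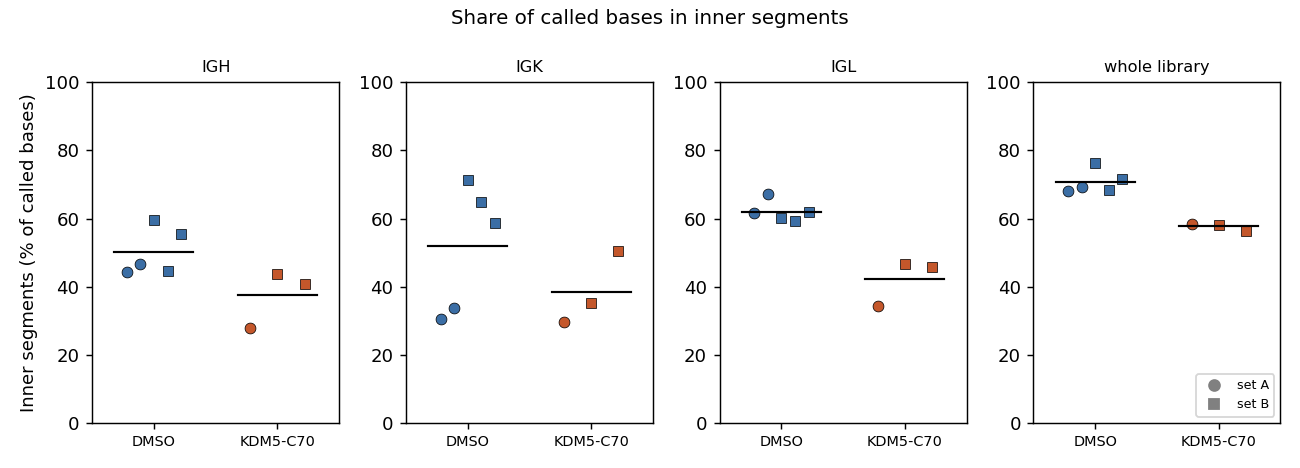
Share of called bases that lie in inner segments (%, vertical axis) per library in IGH, IGK, IGL and the whole library, in DMSO (n = 5) and KDM5-C70 (n = 3), with the group mean as a bar, circles for set A and squares for set B. In IGH, IGL and the whole library every KDM5-C70 value is below every DMSO value, and in IGK the groups overlap.

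Of single member regions, 2 of the 10 called in all 8 libraries (20%) had a lower inner share in every KDM5-C70 library, against 12.2% of all such regions. Both were in IGL. The share of chr22:22651608-22653087 was 81.5, 79.8, 83.8, 77.3 and 76.7% in DMSO and 40.1, 41.8 and 17.7% in KDM5-C70, while its width overlapped between groups. That of chr22:23229643-23231560, at the constant end, was 84.3, 81.9, 63.7, 87.7 and 82.3% in DMSO and 51.8, 42.0 and 15% in KDM5-C70.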

How the data were processed

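The submitters' processing notes name GRCh37 and the tools MACS2 2.1.0, HOMER 4.8, Bowtie 1.1.2 and Trim Galore 0.40. Settings and a control library are not stated there. Each library has its own list from the authors, not pooled, in which a region has a position, inner blocks, an enrichment ratio (fold) and a −log10 q-value. From the deposited −log10 q-value a stricter list was made, and the deposited fold was not used in any result. Blocks of 1 bp were left out, and the others are the inner segments. Positions are counted from 1. No counts were used, so depth is unknown.

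Lists were merged at an overlap of at least 1 bp, and called width is the called bases of a library in a merged region. For totals and inner shares a 2-sided exact permutation test was run over the 56 ways to take 5 and 3 of the 8 libraries (smaller tail doubled). Widths entered limma 3.58.1, run in R 4.3.3 (log2 bases, variance trend, Benjamini-Hochberg over 13729 regions). The rest was done in pandas 2.3.3, numpy 2.4.6 and matplotlib 3.10.9 under Python 3.11.15, and merging and the limma step were tested on simulated data. Members, lists and tests were chosen with earlier results of these data known. Named regions were those called in at least 6 libraries, the 3 widest per locus, any called in all of 1 group and none of the other, and every region at the 2 TSS. Regions named outside this rule are described as such where they appear. The gene table is of GRCh38.p14, so regions were not assigned to genes, and lists of other antibody assembly genes and of cell type markers were not analysed here. Alternatives were stricter or equal lists, inner segments, joined regions, other TSS windows, a replicate block, each library left out, and each set alone.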

Additional observations from a re-analysis of the deposited data

Results flagged for a closer look

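In 26 groups of 5 DMSO values, 1 had a library far from the rest, and chance marks about 5% of such groups. The region chr14:106145580-106147771 in IGH was 800 bp wide in DMSO 2 and 2026 to 2155 bp in the other DMSO libraries. DMSO 2 also had the shortest list of the 8 libraries, at 15323 regions, and whether that bears on this width was not tested.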

How the results depend on the processing

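No comparison of called bases passed its test under any alternative, but its direction often changed, and the cause was not tested. Keeping regions with a −log10 q-value of at least 5 left 10 regions called in all 8 libraries over the whole table, against 13729 without that cutoff. At the members it gave differences of −2506 bases in IGH, −483 in IGK, −5051 in IGL, −45.4 at JCHAIN, −2140 at MZB1 (no KDM5-C70 call remained) and −10226 over the 5 members. Inner segments alone gave −153, −521, −56.9, −516, −859 and −2105. Equally long lists of the widest regions gave 310 in IGH, 367 in IGK, 2827 in IGL, −1432 at JCHAIN, −327 at MZB1 and 1745 over the 5 members. Per Mb of called bases, IGK gave −35.1 and the 5 members −9.20, and joining regions within 1000 bp gave −41.7 in IGK. Within set A the differences were −225 (IGH), −794 (IGK), −114 (JCHAIN) and −198 (5 members), and IGK had 740 within set B. A window of 2 kb around the MZB1 TSS gave 30.1. With 1 library left out, called bases differed by 474 to 7509 in IGH, −18.5 to 486 in IGK (negative without KDM5-C70 2), 2046 to 7795 in IGL, −1672 to −1021 at JCHAIN and −666 to −84.0 at MZB1. The inner share differed by −15.9 to −7.89 points in IGH and −21.9 to −15.8 in IGL, with exact permutation p of 0.0571 or 0.0952, the smallest those numbers of libraries allow. Within sets the IGL share differed by −30.0 (A) and −14.2 (B) points. With lists of equal length the IGH share differed by −9.82 points (exact permutation p = 0.286), and minus the library's own share by 0.33 in IGH and −6.68 in IGL, an alternative added after the data were seen. Over the whole table limma called 10 regions with the replicate number as a block and 27 with the sets as a term and centring, none of them in the members. In the fit with sets and centring, chr22:23229643-23231560 came nearest of the members (limma log2 difference −0.53, SE 0.085, adjusted p = 0.0724). With inner segments alone limma called no region. The same IGL region then had a limma log2 difference of −1.84 (SE 0.24, adjusted p = 0.105, the smallest over 14692 regions tested). With the stricter lists limma called 1 of 10 testable regions, and no member region was among those 10. With the replicate block the IGK difference was −20.0 bases. Same-numbered libraries correlated at 0.37, −0.31 and 0.32, and 1 of 3 KDM5-C70 libraries correlated best with its own number. DMSO 2 and KDM5-C70 2 lie in different sets, so these correlations cannot show whether the numbers pair the libraries. Widths of the 10 member regions kept their sign in 137 of 155 alternatives. The log2 difference of chr14:106145580-106147771 turned to 0.13 with the replicate block. That of chr14:106210313-106211772 turned to 0.085 with the sets as a term and 0.023 with joined regions, and that of chr22:22901070-22902144 to −0.020 with sets and centring. With 1 library left out, these 3 regions gave −0.33 to 0.06, −0.52 to 0.29 and −0.17 to 0.49, and chr22:22651608-22653087 gave −0.13 to 0.038. Depth is unknown, so no limit can be set on how weak a region each list could hold.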
